A study of Mus musculus with 3 samples.

Results

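Pericytes and vascular smooth muscle cells were looked for in mouse skin wounds with a rule on marker transcripts, and the rule chose 325 of 26953 cells. Pericytes wrap capillaries and smooth muscle cells wrap arterioles and larger vessels; together they are called mural cells, and they contract, share a basement membrane with the endothelium and receive PDGF and Notch signals from it. In wounds they also lay down matrix. Some of their genes are used elsewhere in skin: Notch3, a receptor that mural cells depend on, is also a gene of differentiating epidermis, and the contractile genes are shared with arrector pili muscle and the dermal sheath of the hair follicle.

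Wounds of 5 mm were cut through the full thickness of the back skin of C57BL/6J mice, all female and at postnatal day 50, and a splint kept them from contracting. There was 1 library per group: an untreated wound, a wound given 20 µL of gelatin methacryloyl (GelMA, a gelatin that ultraviolet light turns into a gel, here in 1 min), and a wound given that gel with apoptotic neutrophils in it (AN-GelMA). All 3 were splinted, covered and collected at day 5 with a 2 mm margin of uninjured skin, fixed for 24 h and digested with Liberase for 2 h. The sources used here do not give the number of mice behind a library, and with 1 library per group no difference can be tested: animal, piece of skin and gel cannot be told apart, and every interval below covers counting error only.

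Members were chosen by their UMIs (counted transcript molecules). A cell was a member when it had at least 4 UMIs of Rgs5, Notch3, Cspg4, Abcc9, Myh11 and Pdgfrb together, at least 2 of them from Rgs5, Notch3 and Myh11, none of the endothelial genes Pecam1 and Cdh5, at most 1 of the fibroblast genes Pdgfra, Pi16 and Tnn, and at most 3 of Krt14 and Ttn, genes of basal keratinocytes and skeletal muscle. Cells with under 250 genes or over 10% mitochondrial UMIs had been left out. The untreated library gave 81 members among 6039 kept cells (1.34%, exact binomial 95% interval 1.07 to 1.66), the GelMA library 180 among 11302 (1.59%, 1.37 to 1.84) and the AN-GelMA library 64 among 9612 (0.666%, 0.513 to 0.849). The libraries held 8945496, 21613482 and 14156692 UMIs. They shared 92 to 133 cell barcodes pairwise, and no barcode of a member was shared.

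The members did not all carry the genes of their label. In 139 of the 325, Notch3 was the only one of the 6 markers detected: 17 in the untreated library, 109 in GelMA and 13 in AN-GelMA. A list of 16 keratinocyte genes separated the members further, so 2 classes were described after the values had been seen. Keratin-poor members had fewer than 3 UMIs of that list and at least 1 UMI of a marker other than Notch3. There were 151 of them (46.5% of members), 58 untreated, 50 GelMA and 43 AN-GelMA, or 71.6%, 27.8% and 67.2% of each library's members. All other members numbered 23, 130 and 21. Of these 174, 169 had 3 or more keratinocyte-list UMIs and the remaining 5, all from GelMA, had Notch3 alone. The low keratin of the first class and the Notch3-only cells of the second are fixed by these definitions.

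**Figure D1:**
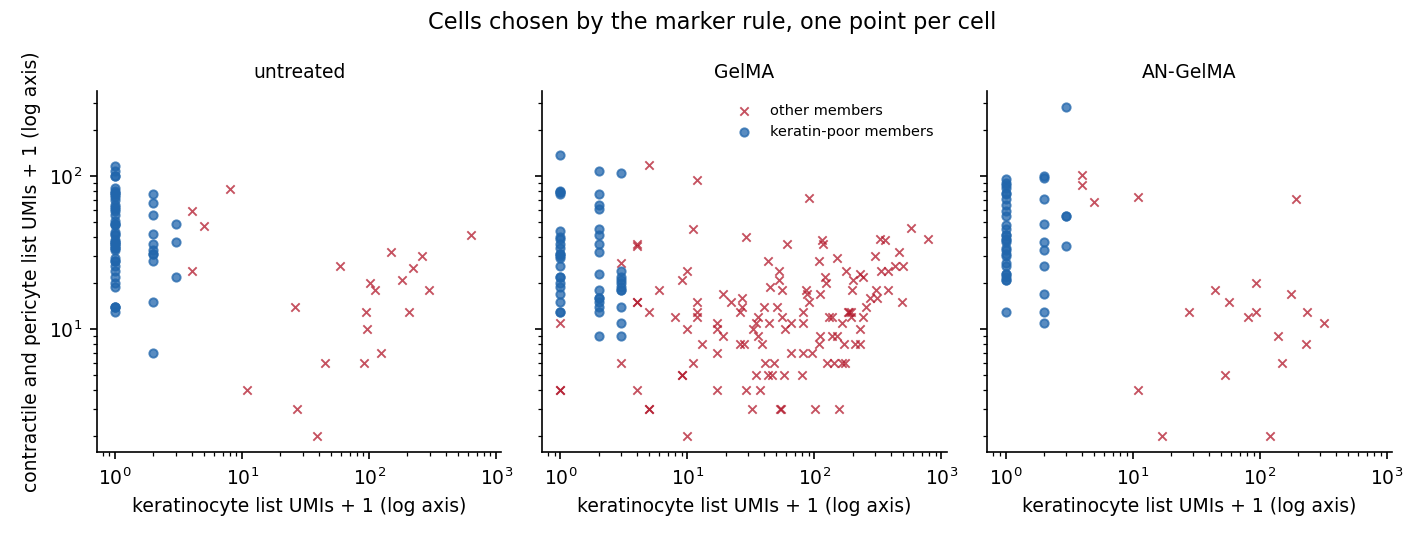
Each point is 1 member; the horizontal axis is its UMIs of the keratinocyte list plus 1, the vertical axis its UMIs of the contractile and pericyte lists plus 1, both on log axes. Keratin-poor members (circles) lie at the left edge by definition, and other members (crosses) fill the right of the GelMA panel, where they number 130.

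Genes that the definition did not use also differed between the classes. The required UMI of a marker other than Notch3 favours this, so it is a description. Keratin-poor members had a median of 25 UMIs of the contractile list (32 smooth muscle genes outside the rule), with 3 in the lowest cell and 259 in the highest, against a median of 10 in the other members, although the other members were deeper: their median was 3060 UMIs untreated, 3330 in GelMA and 3545 in AN-GelMA, against 1133, 759 and 1301. For the pericyte list (26 genes outside the rule) the medians were 8 and 1 UMIs.

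Most of the other 174 members carried epidermal or hair genes, while 19 of them (3, 11 and 5) had 4 or more UMIs of the markers other than Notch3. Krt1, a keratin of suprabasal epidermis, gave 15613, 12924.5 and 13374 CPM (a gene's UMIs per 1000000 UMIs summed over the cells), always in the order untreated, GelMA and AN-GelMA, and Krt10, its partner, 2750, 3039 and 1680. At least 3 UMIs of Krt1, Krt10 and Lor were found in 19, 68 and 14 of these cells. Inner root sheath genes, which build the layer that moulds the growing hair (Krt25, Krt27, Krt28, Krt71, Krt73 and Tchh), reached 3 UMIs in 1 untreated, 59 GelMA and 0 AN-GelMA cells. Neither group of genes reached 3 UMIs in 4, 32 and 7 cells. Krt71 had 2, 770 and 1 UMIs and Tchh 14, 1546 and 0, so nearly all of these transcripts came from the GelMA library. In 19 of the 174 cells (4, 10 and 5) there were at least 30 contractile-list UMIs. Some of these lay just past the keratin limit, such as a GelMA cell with 100 contractile-list and 4 keratinocyte-list UMIs. An AN-GelMA cell had 88 and 3. Others had many keratinocyte-list UMIs, such as a GelMA cell with 38 and 579. Whether any of these barcodes held more than 1 cell was not tested, and no doublet caller was used.

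Comparisons over all members were led by epithelial genes. Between 2 libraries a gene was called at a CPM ratio of 2 or more, among genes with at least 20 UMIs over both. Of 7781 genes, 22.8% were called between GelMA and untreated members, and the leading genes were Krt25 (449 UMIs against 0, at least 44.9-fold higher), Krt71, Krt27 and Tchh. Between AN-GelMA and GelMA members 25.0% of 7658 genes were called, with Tchh at least 137-fold lower in AN-GelMA. Between AN-GelMA and untreated members 9.07% of 4937 genes were called, led by Lor, a cornified envelope protein, whose 958 UMIs in AN-GelMA came from 4 cells, 935 of them from a single one. The share of members in a library also counts these cells, and the results below are given for the keratin-poor members.

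Keratin-poor members made up 0.960% of kept cells in the untreated library (0.730 to 1.24), 0.442% in GelMA (0.329 to 0.583) and 0.447% in AN-GelMA (0.324 to 0.602). The untreated share lay above both gel shares, whose intervals overlapped. Set against endothelial-type cells (at least 2 UMIs of Pecam1 and Cdh5 and none of Rgs5, Notch3 and Myh11), of which there were 287, 270 and 237, the 3 values lay within each other's intervals: there were 0.202 keratin-poor members per endothelial-type cell in the untreated library (95% interval 0.150 to 0.269), 0.185 in GelMA (0.134 to 0.251) and 0.181 in AN-GelMA (0.128 to 0.252). With all members the same ratios were 0.282, 0.667 and 0.270. The limit on keratinocyte-list UMIs was set on keratin-poor members and not on endothelial-type cells, which carried 1481, 3161 and 542 CPM of that list. A fixed limit can therefore leave out mural cells unequally, in the share as in the ratio. Of the members it left out, 3, 11 and 5 had 4 or more UMIs of markers other than Notch3. The size of this effect was not tested. The share of kept cells moved with what else was in a library: among cells with few keratin and Ttn UMIs, keratin-poor members were 1.26% untreated, 0.971% in GelMA and 0.589% in AN-GelMA.

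**Figure D2:**
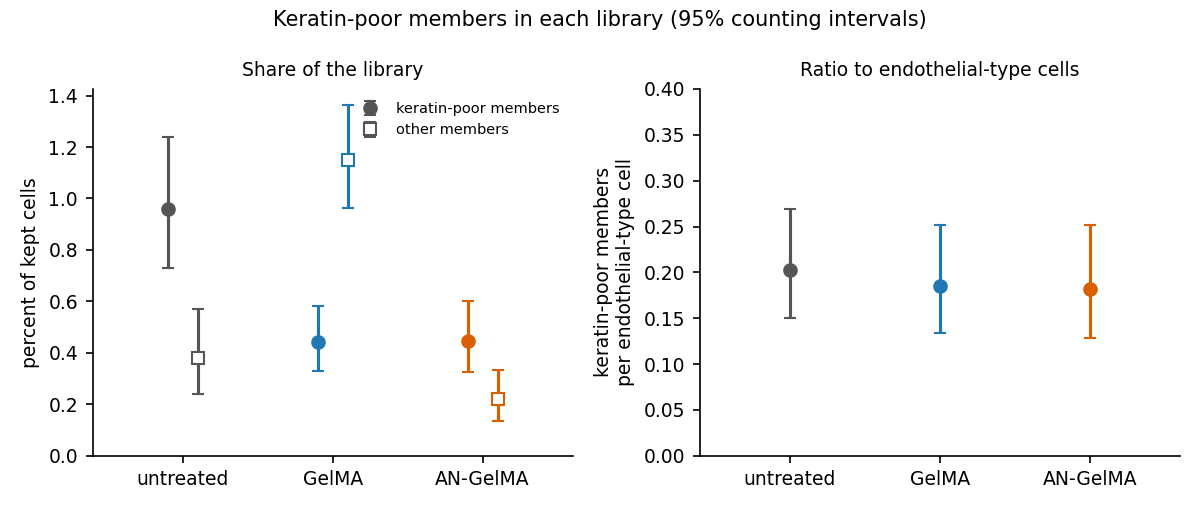
The left panel gives each class of members as a percentage of kept cells and the right panel keratin-poor members per endothelial-type cell, for the 3 libraries, with exact 95% counting intervals. Keratin-poor members are at 0.960%, 0.442% and 0.447% on the left and at 0.202, 0.185 and 0.181 on the right, where the intervals overlap.

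At the edge of the rule few cells were keratin-poor. Of the 104 members with exactly 4 marker UMIs 13 (12.5%) were, and the median contractile-list count over the 104 was 9 UMIs. GelMA supplied 73 of these cells, 4 of them keratin-poor, the untreated library 15 with 5, and AN-GelMA 16 with 4. Of the 243 cells that met every other condition but had 3 marker UMIs, 12 (4.94%) would have been keratin-poor, and the median was 6.

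The markers themselves, which chose the cells, are given as a description. At least 2 of the 6 were present in 144 of the 151 keratin-poor members and at least 3 in 93. Myh11, the smooth muscle myosin heavy chain, had 172, 149 and 139 UMIs in keratin-poor members, in 40 of 58, 32 of 50 and 29 of 43 cells. Pdgfrb, the receptor through which endothelial PDGF recruits mural cells, had 113, 80 and 92 UMIs. Rgs5, a regulator of G protein signalling typical of pericytes, had 68, 29 and 47, and Abcc9, a subunit of the pericyte ATP-sensitive potassium channel, had 52, 32 and 24. Cspg4, the NG2 proteoglycan, was close to absent at 4, 2 and 4 UMIs. Notch3 had 89, 114 and 80 UMIs.

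Genes outside the rule showed what these cells shared. Among genes with at least 100 UMIs in these cells, ranked by their mean CPM over the highest mean CPM in endothelial-type, fibroblast-type and keratinocyte-type cells, Tbx2, a T-box transcription factor, came first at 1282 CPM, 96.7 times the highest comparison value. It was followed by Gucy1a1, a subunit of the nitric oxide receptor guanylate cyclase (607 CPM, 26.6 times), Itga7, a laminin-binding integrin of muscle (768 CPM, 24.2 times), and Acta2, smooth muscle actin (2692 CPM, 16.7 times). Further down were Tagln (13.5 times), Mylk, the kinase that activates smooth muscle myosin (12.1), its phosphatase inhibitor Ppp1r14a (12.0) and the myosin light chain Myl9 (9.32). Because the cells were chosen for mural markers, this order is a description. The assay counts 1 probe set per gene, so levels are compared between cells and not between genes.

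Acta2 was detected in 37 of 58 untreated (63.8%), 26 of 50 GelMA (52.0%) and 27 of 43 AN-GelMA (62.8%) keratin-poor members. In keratinocyte-type cells, which should lack it, 1.41%, 1.94% and 1.15% had a UMI at median depths of 1606.5, 1643 and 1445.5 UMIs, and in endothelial-type cells 2.09%, 0.370% and 1.27%. Fibroblast-type cells, some of which use the gene in wounds, had a UMI in 12.7%, 6.74% and 5.76%. The level in keratin-poor members was 3301 CPM in the untreated library (2886 to 3760), 2544 in GelMA (2111 to 3039) and 2231 in AN-GelMA (1879 to 2630). Tagln, an actin-bundling protein of smooth muscle, stood at 2312, 2354 and 1430 CPM. Summed over its 32 genes, the contractile list gave 29844, 28400 and 27043 CPM, nearly level as a sum across the libraries. The median cell had 28.5, 15.5 and 25 UMIs of the list, at median depths of 1133, 759 and 1301 UMIs. The 5 richest cells held 22.8%, 32.6% and 35.3% of the list UMIs, and 1 AN-GelMA cell held 259 of that library's 1721. In endothelial-type cells the list summed to 6510, 5482 and 6750 CPM and in fibroblast-type cells to 7544, 7054 and 6557. The pericyte list summed to 8479, 8451 and 7480 CPM, and reached 1158.7 to 1619 CPM in endothelial-type cells. Kcnj8, Vtn, Ndufa4l2 and Anpep, often used as pericyte markers, had at most 10 UMIs in any library, and Ggt1 and Atp13a5 had none in any.

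Contractile genes are driven by serum response factor, which binds a short element called the CArG box. Promoter windows of 300 bases (250 before to 50 after the start, RefSeq, GRCm38.p6, a build other than that of the counts) were found for 28 of the 32 contractile-list genes, and 5 (17.9%) held an exact CArG box on either strand, against 488 of 27025 genes (1.81%). Both shares are a description. Tagln was among the genes without a window, and elements that depart from the exact box were not counted. The 5 stretches are shown because they carry the element beside a start site of genes measured here, with the box in capitals.
Myl9, chr2:156775283-156775332, plus strand: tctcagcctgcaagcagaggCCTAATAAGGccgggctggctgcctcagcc
Vcl, chr14:20929151-20929200, plus strand: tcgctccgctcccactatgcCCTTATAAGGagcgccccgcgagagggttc
Fhl1, chrX:56779561-56779610, plus strand: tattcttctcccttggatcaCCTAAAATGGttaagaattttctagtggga
Filip1l, chr16:57549160-57549209, plus strand: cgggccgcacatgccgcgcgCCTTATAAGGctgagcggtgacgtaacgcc
Srf, chr17:46556195-46556264, minus strand: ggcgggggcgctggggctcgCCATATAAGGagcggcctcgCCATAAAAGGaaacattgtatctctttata
The boxes begin 161, 227, 102 and 62 bases before the start in Myl9, Vcl, Fhl1 and Filip1l, and Srf, the gene of the factor itself, has 2, at 82 and 62. Myl9 stood at 756, 799 and 801 CPM in keratin-poor members. Vcl, which anchors actin to the membrane, stood at 902, 631 and 566 CPM, and Fhl1, a LIM protein of muscle, at 378, 231 and 456. Myl9 was level, Vcl highest in the untreated library and Fhl1 lowest in GelMA.

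Within the keratin-poor members 2 kinds of cell could be described by Myh11. In these libraries 31, 27 and 21 cells had 2 or more Myh11 UMIs. Another 9, 5 and 8 had 1, and 18, 18 and 14 had none. By number of cells the mix was much alike, but by summed UMIs, which set the CPM, it was not. Cells with 2 or more Myh11 UMIs supplied 30820, 28684 and 26824 UMIs, and cells with none 27615, 13977 and 24947. Pooled GelMA levels therefore lean more on the cells with 2 or more Myh11 UMIs than those of the other libraries do. With the 3 libraries summed, the cells with 2 or more were set against those with none. Over 2184 genes 11.1% were at least 2-fold higher and 10.2% at least 2-fold lower, with a median log2 ratio of −0.05. Of the 24 contractile-list genes with at least 20 UMIs, 17 were higher and 0 lower, and the median log2 ratio was 1.55. Tagln had 296 UMIs against 24 (log2 ratio 3.25, 2.65 to 3.91), Acta2 391 against 58 (2.38, 1.98 to 2.80) and Lmod1, a nucleator of smooth muscle actin filaments, 30 against 2 (3.53, 1.55 to 6.64). Each of these had the same sign in all 3 libraries. Cald1, Mrtfb, Des and Srf lay near 0, between 0.02 and −0.38.

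Of the vessel tone list 3 of 14 genes were higher and 0 lower in the cells with Myh11, of the basement membrane list 3 of 18 and 0, and of the Notch list 2 of 6 and 0, against 11.1% higher over all genes. The genes with the largest ratios were these. P2rx1, the ATP-gated channel through which sympathetic nerves constrict arteries, had 44 UMIs against 0 (at least 11.3-fold higher), Ntrk3 134 against 1, Eln, the elastin gene, 36 against 1, and Lama5, a laminin chain, 68 against 4. Hey2, a Notch target of arteries, had 25 against 3 and Nrip2 51 against 12. The calcium channels Ryr2 (20 against 2) and Cacna1h (21 against 4) were higher too. P2rx1, Ntrk3, Eln, Lama5, Nrip2, Ryr2 and Cacna1h were higher in all 3 libraries and Hey2 in 2. Itga8, an integrin also found in arrector pili muscle and the dermal sheath, had 34 against 1 UMIs. The 16-gene list for those structures summed to 32, 34 and 43 UMIs in keratin-poor members, mostly from Itga8 and Synpo2, while Corin, Rspo3, Hhip, Sox2 and Wif1 had no UMI; how many cells belong to arrector muscle was not tested.

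The pericyte list split. Of 14 genes, 5 were lower in the cells with Myh11, among them Cox4i2 (7 against 23 UMIs, log2 ratio −2.09), Art3 (−1.96), Ebf1 (−1.45) and Higd1b (−1.43), and 2 were higher, the connexin Gja4 (1.75) and the amine oxidase Aoc3 (1.95). The median was −0.62. Cox4i2 and Higd1b are mitochondrial proteins of pericytes, and Ebf1 is a transcription factor of pericytes. Rgs5, Abcc9 and Pdgfrb were lower as well, at −1.36, −2.21 and −1.02, which the rule favours, since a cell without Myh11 needs its 4 UMIs from the other markers. Outside the lists, Vstm4 (−3.18), Cygb, the globin of pericytes and stellate cells (−2.96), Pde4c (−2.91) and Nr2f1 (−2.38) were lower in the cells with Myh11. So was Cyp26b1, which breaks down retinoic acid (−2.45), though GelMA had none of its UMIs and 13 of the 14 in AN-GelMA came from 1 cell.

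Matrix genes were divided in the same cells. Of 20 fibrillar and wound matrix genes, 7 were lower in the cells with Myh11, among them Col1a1 (133 against 240 UMIs, −1.23, −1.54 to −0.92), Col6a3 (−1.30), Fn1 (−1.27) and Col5a3 (−1.25). The 3 that were higher are secreted early-response proteins, Ccn2 (3.39), Ccn1 (2.27) and Thbs1 (1.21). Their UMIs sat in few cells. In GelMA 1 cell held 69 of 133 Ccn2 UMIs and 1 cell 39 of 138 Ccn1 UMIs, and in the untreated library 1 cell held 66 of 158 Thbs1 UMIs. Immediate early genes, which cells switch on within minutes of a stimulus, were also on the higher side in the cells with Myh11. Of 13, 9 were higher and 0 lower, with a median of 1.87, and Nr4a1 had 87 UMIs against 1. The 5 GelMA cells richest in this list, with 66.5% of that library's list UMIs, all had 2 or more Myh11 UMIs. How far these few cells set the median was not tested.

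The clearest differences between the libraries were in matrix genes and immediate early genes, and both set GelMA apart. Over all genes measured in keratin-poor members, 7.33% were called higher and 11.9% lower in GelMA than in the untreated library (1473 genes), 8.54% higher and 8.47% lower in AN-GelMA than in GelMA (1323 genes), and 5.36% higher and 7.85% lower in AN-GelMA than in the untreated library (1771 genes). These comparisons share libraries, so a high or low value in GelMA enters 2 of them.

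Fibrillar and wound matrix genes were low in GelMA. Col1a1, the main chain of type I collagen, had 196 UMIs in the untreated library (2851 CPM, 2465 to 3279), 35 in GelMA (736 CPM, 512 to 1023) and 228 in AN-GelMA (3583 CPM, 3133 to 4079). It was found in 41 of 58, 15 of 50 and 33 of 43 cells, so GelMA was low in share of cells as well as in level, and no interval of GelMA met another. The level in GelMA was 3.87-fold below the untreated one, and that in AN-GelMA 4.87-fold above GelMA. Col1a2, the other chain, followed with 1789, 399 and 1886 CPM.

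Postn, periostin of the wound matrix, had 40, 4 and 32 UMIs, and Col5a1, a chain that starts collagen fibrils, 41, 4 and 31. Col6a1, of the pericellular collagen VI, had 106, 27 and 130 UMIs. All 3 were lowest in GelMA, with the other libraries close to each other. Thbs1, thrombospondin 1, had 158, 34 and 109 UMIs, but 66 of the untreated UMIs came from 1 cell; without that cell the log2 ratio of GelMA over untreated moved from −1.68 to −0.95. Bmp1, the protease that trims procollagen, had 70 UMIs in the untreated library and 13 in GelMA (log2 ratio −1.90, −2.88 to −1.03), and Col15a1, a collagen of the vessel basement membrane, had 22, 1 and 18 UMIs.

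Over the list, 20 of 35 genes had at least 20 UMIs in GelMA and untreated together: 2 were higher in GelMA (Ccn1 and Timp3) and 11 lower, with a median log2 ratio of −1.09 against −0.11 over all genes. In AN-GelMA over GelMA, 11 of 18 were higher and 2 lower, with a median of 1.19 against −0.00. In AN-GelMA over untreated, 0 of 21 were higher and 1, Ccn2, was lower, with a median of −0.13 against −0.10. Because only genes with enough UMIs enter, the sum over all 35 is given too: 22601 CPM untreated, 13369.5 in GelMA and 21999 in AN-GelMA. A GelMA cell had a median of 6 UMIs of the list, an untreated cell 20.5 and an AN-GelMA cell 19; the 5 richest GelMA cells held 51.4% of that library's list UMIs.

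**Figure D3:**
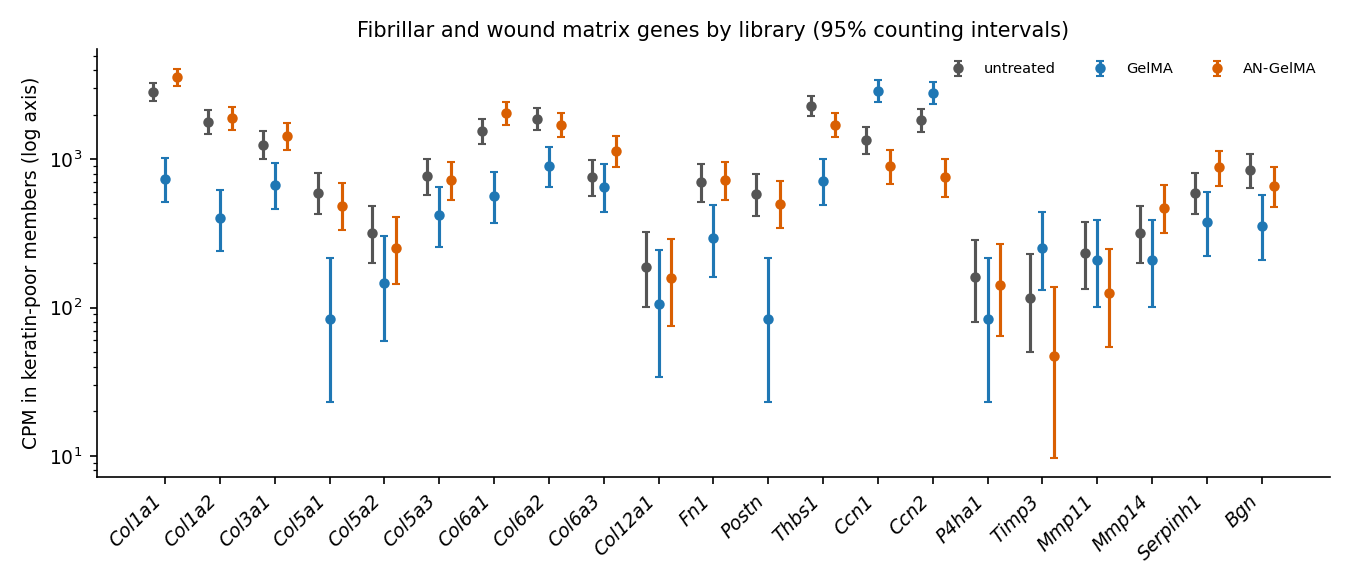
CPM in keratin-poor members of 21 matrix-list genes, each with at least 20 UMIs over the 3 libraries, on a log axis with exact 95% counting intervals. GelMA (blue) lies lowest for most collagens, for example Col1a1 at 736 against 2851 and 3583 CPM, and highest for Ccn1, Ccn2 and Timp3.

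Low collagen in GelMA held in both kinds of cell. With 2 or more Myh11 UMIs, Col1a1 stood at 1849 CPM in the untreated library, 453 in GelMA and 2349 in AN-GelMA, and with no Myh11 UMI at 4020, 1073 and 4570. GelMA cells were shallower, with a median of 759 UMIs. After each cell was thinned to 800 UMIs, which left out 18 untreated, 27 GelMA and 10 AN-GelMA cells, Col1a1 stood at 3094, 761 and 3636 CPM, as before. In that deeper part of the cells the direction was the same for Col1a2 and Postn.

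The share of fibroblasts was lowest in GelMA as well, and its part in the result was not tested. Fibroblast-type cells were 4.44% of kept cells in the untreated library, 1.57% in GelMA and 6.50% in AN-GelMA, and in them Col1a1 stood at 11262, 8043 and 11295 CPM. In keratinocyte-type cells, where collagen transcripts may come from outside the cell, Col1a1 stood at 174.5, 93.7 and 171 CPM, again lowest in GelMA, far below the level in keratin-poor members. In endothelial-type cells it stood at 409, 206 and 185 CPM, lowest in AN-GelMA. The fibroblast list (15 genes) summed to 4232, 1535 and 5185.5 CPM in keratin-poor members, nearly all from Col1a1, which the matrix list holds too, Prrx1 and Pcolce; 4, 9 and 4 of its genes were at 0. Of its genes, Lum had no UMI in any library and Dcn 0, 0 and 1. Fibroblast-type cells had 29, 30 and 72 UMIs of Lum and 84, 52 and 193 of Dcn. Their totals were far larger, at 368502, 234627 and 843130 UMIs against 68758, 47571 and 63639 in keratin-poor members. These counts therefore cannot be set against each other directly. Prrx1, a transcription factor of mesenchyme, had 57, 18 and 58 UMIs in keratin-poor members and so followed the collagens, while Pcolce, which helps cut procollagen, had 22, 15 and 23 and did not. The matrix list in fibroblast-type cells had a median log2 ratio of −0.39 for GelMA over untreated (34 genes, 1 higher and 5 lower; 7.64% and 5.18% over all 7253 genes) and of −0.52 in endothelial-type cells (21 genes, 1 higher and 0 lower; 6.61% and 3.49% over all 7365 genes). These medians lie nearer 0 than the −1.09 of keratin-poor members; whether the difference between cell types exceeds what another animal would give was not tested.

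Immediate early genes were high in GelMA, in few cells. Egr1, a zinc finger transcription factor, had 1 UMI in the untreated library, 42 in GelMA and 1 in AN-GelMA; the 42 came from 10 of the 50 cells, with at most 11 in one. Zfp36, which promotes decay of cytokine transcripts, had 10, 44 and 8 UMIs in 8, 13 and 7 cells. Fos, a subunit of the AP-1 factor, had 8, 30 and 13 UMIs, 15 of the 30 in 1 cell, and its relative Fosb 0, 27 and 4, of which 23 were in 1 cell. Without that cell the log2 ratio of Fosb in AN-GelMA over GelMA went from −3.17 to −0.45, so Fosb rests on 1 cell. Nr4a1, a nuclear receptor, differed less, with 25, 34 and 29 UMIs.

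Of the 29 listed genes with a probe, 10 had at least 20 UMIs in GelMA and untreated together, and 7 were called higher in GelMA and 0 lower, with a median log2 ratio of 1.24. In AN-GelMA over GelMA 7 of 9 were lower and 0 higher, with a median of −1.74, which was −0.76 when members with 3 or more UMIs of other cell types were left out. In AN-GelMA over untreated 0 of 5 were called, with a median of 0.02. The whole list summed to 2327, 7273 and 2373 CPM. Even so the median cell had 2 UMIs of the list in every library. At least 10 were found in 1, 6 and 3 cells, and the 5 richest GelMA cells held 66.5% of that library's list UMIs. Of the 42 Egr1 UMIs in GelMA, 41 were in the cells with 2 or more Myh11 UMIs. Within those cells the list summed to 2953, 10145 and 3281 CPM, and within cells with no Myh11 UMI to 1955, 2933 and 1764.

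**Figure D4:**
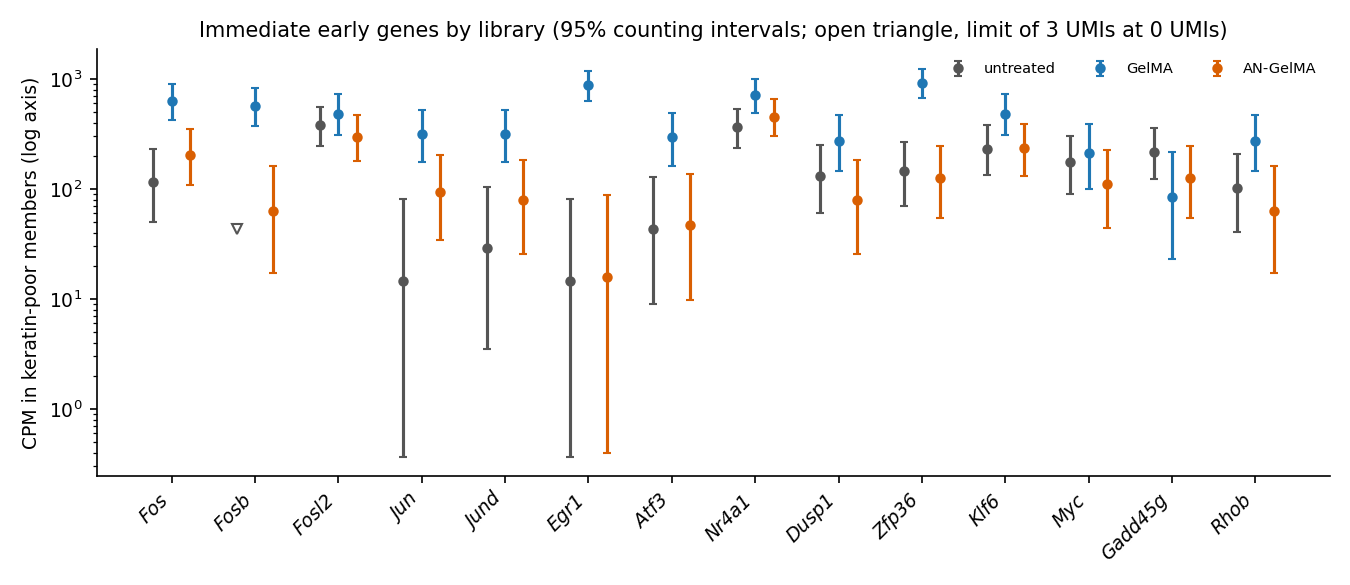
CPM of immediate early genes with at least 20 UMIs over the 3 libraries, in keratin-poor members, on a log axis with exact 95% counting intervals; the open triangle marks a limit of 3 UMIs where none was counted. GelMA (blue) lies highest for most genes, for example Egr1 at 883 against 14.5 and 15.7 CPM, and Gadd45g is an exception.

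Egr1 was highest in GelMA in other cells too. In keratinocyte-type cells it stood at 23.5, 137 and 24.9 CPM and in fibroblast-type cells at 51.6, 162 and 46.3, while in endothelial-type cells it stood at 43.3, 35.4 and 45.5. The list as a whole had a median log2 ratio of GelMA over untreated of 0.17 in both keratinocyte-type and endothelial-type cells and of 0.14 in fibroblast-type cells.

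Ccn1 and Ccn2, secreted proteins of the matrix, had the most UMIs in GelMA, which for Ccn2 rests on 1 cell. Ccn1 had 92, 138 and 57 UMIs in 16, 12 and 13 cells, and Ccn2 126, 133 and 48 in 15, 13 and 8 cells, so few cells held them in any library. A single GelMA cell held 69 of the 133 Ccn2 UMIs, and without it the log2 ratio of AN-GelMA over GelMA went from −1.89 to −0.93. Without the top untreated cell that of AN-GelMA over untreated went from −1.28 to −0.84. Ccn1 turned from −1.70 to 2.86 for AN-GelMA over GelMA when only cells with no Myh11 UMI were counted.

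Genes outside these lists follow. Pde4c, a phosphodiesterase that degrades cyclic AMP, had 4, 30 and 3 UMIs in 3, 11 and 3 cells, and it was also among the genes that were lower in the cells with Myh11. Id3, a target of BMP signalling, had 21, 44 and 12 UMIs. On the low side, Begain had 29, 0 and 25 UMIs, at least 6.69-fold lower in GelMA than in the untreated library. Rgs16, a regulator of G protein signalling, had 32, 10 and 64. Dlk1, a Notch ligand relative of immature mesenchyme, had 26, 1 and 7 UMIs, too few to compare the gel libraries. Flt1, a VEGF receptor, had 16, 1 and 22 UMIs, too few to compare GelMA with the untreated library. As Flt1 is also a main endothelial gene, the endothelial list was checked: it summed to 51, 31 and 57 UMIs in keratin-poor members, Flt1 included, and 8 to 11 of its 14 genes had none.

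Between AN-GelMA and the untreated library 13.2% of genes were called in all, against 19.2% between GelMA and untreated and 17.0% between AN-GelMA and GelMA. Septin9, a cytoskeletal filament gene, was higher in AN-GelMA (20 and 49 UMIs in the untreated and AN-GelMA libraries, log2 ratio 1.40, 0.63 to 2.23). Itga8 had 4 and 16 UMIs in 3 and 8 cells, but also 17 in GelMA, so it was higher in both gel libraries than in the untreated one. Rgs16 was higher in AN-GelMA too, but its log2 ratio of 1.11 became −0.73 in the cells with 2 or more Myh11 UMIs. Ncapg, a condensin subunit of dividing cells, was lower (28 and 3 UMIs, −3.11, −5.47 to −1.42), as was Clspn, of the replication checkpoint (18 and 2). Of 13 cell cycle genes 1 was called higher and 1 lower, but 10 of 13 leaned lower in AN-GelMA, with a median of −0.43 against −0.10 over all genes. The list's sum had a log2 ratio of −0.32 (−0.53 to −0.11), and was 6399, 4688 and 5123 CPM. It was detected in 42 of 58 untreated, 25 of 50 GelMA and 29 of 43 AN-GelMA cells, and 5 GelMA cells held 62.3% of its UMIs there.

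Most of the remaining programmes differed less than the matrix and immediate early lists or were thinly measured. For vessel tone, 1 of 11 genes was called higher and 0 lower in GelMA over untreated, with a median log2 ratio of −0.09. In AN-GelMA over untreated 2 of 12 were lower, with a median of −0.37. The vessel tone list summed to 7068, 7168 and 5594 CPM, a log2 ratio of −0.36 for AN-GelMA over GelMA (−0.58 to −0.14). Gucy1a1 stood at 582, 736 and 503 CPM, its partner Gucy1b1 at 480, 441 and 220, and Cacna1c, the L-type calcium channel, at 276, 610 and 346. Among Notch genes, Jag1, the ligand that mural cells pass to each other, was level at 1047, 1051 and 1053 CPM, Heyl had 14, 13 and 10 UMIs, and Hes1 had 2, 13 and 3. In GelMA over untreated 2 of 6 Notch genes were called higher, Hey2 and Nrip2, against 7.33% over all genes. All 6 had positive ratios, with a median of 0.54. Hey2 and Nrip2 were also the Notch genes higher in the cells with Myh11, on which pooled GelMA levels lean more. The part of that mix in the Notch values was not tested. The Notch list summed to 2094, 3258 and 2420 CPM, a log2 ratio of 0.64 for GelMA over untreated (0.30 to 0.98). In basement membrane, Col4a1, the main collagen IV chain, stood at 2691, 1892 and 2357 CPM and Col18a1 at 800, 757 and 676; in GelMA over untreated 2 of 18 genes were higher and 3 lower, with a median of −0.43. Interferon-induced genes had a median of −0.74 in GelMA over untreated, over 6 genes with none called.

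Among markers of other cells, the fibroblast list was the most abundant in keratin-poor members, with 291, 73 and 330 UMIs, and the endothelial list had 51, 31 and 57. The macrophage list had 15, 8 and 31 UMIs, the neutrophil list 6, 7 and 8, the Schwann list 20, 6 and 23, the adipocyte list 27, 21 and 19 and the skeletal muscle list 14, 18 and 16, in totals of 68758, 47571 and 63639 UMIs. The keratinocyte list had 17, 38 and 18 UMIs, which the definition of the class holds low.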

How the data were processed

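The deposited matrices hold counts, UMI counts per gene and cell barcode of fixed cells probed with the 10x Genomics GEM-X Flex v2 kit. Per the file headers the software was Cell Ranger 10.0.0; the submitters' processing notes name the builds GRCm39 and mm39. Probe pairs measure 19070 features, so genes with no probe were not measured. The filter of 250 genes and 10% mitochondrial UMIs removed 34, 147 and 36 barcodes, and kept cells had medians of 1124, 1488 and 1134 UMIs. No doublet caller was used.

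UMIs of member cells were summed by library and scaled to CPM. In keratin-poor members 1 UMI was 14.5, 21.0 and 15.7 CPM. Ratios of 2 libraries have exact conditional binomial 95% intervals, levels exact Poisson and shares Clopper-Pearson intervals; all cover counting error only. A count of 0 was set to 3 UMIs for a bound. With 1 library per group there is no test.

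Members and 22 gene lists were chosen with earlier results of these data known, and the keratin-poor class after the values were seen. Genes were named as the 10 highest and 10 lowest per comparison by the interval bound nearest 0, among genes with 20 UMIs and a ratio of 2, without the 13 rule genes, mitochondrial and ribosomal protein genes, beside members of the lists; some genes that met this rule are not reported here. The ratios were tested on simulated data with 200 changed genes. The simulated counts were independent Poisson draws, without clumping of UMIs in single cells or differences between animals. That check therefore covers counting error only. Promoter sequences are RefSeq, GRCm38.p6; no other coordinates were used. Python 3.11.15, NumPy 2.4.6, SciPy 1.17.1 and pandas 2.3.3 were used. The files of the AN-GelMA library carry the word heat, which is not explained in the sources used here; its group comes from the labels.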

Additional observations from a re-analysis of the deposited data

How the results depend on the processing

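No paired analysis was possible because no group holds more than 1 library. The percentage of kept cells that were members went (untreated, GelMA, AN-GelMA) to 0.878, 0.522 and 0.385 with 6 or more marker UMIs, to 1.99, 2.94 and 1.21 with 3 or more, to 0.811, 0.345 and 0.323 with fewer than 3 UMIs of other cell types, and to 0.960, 0.442 and 0.447 with keratin-poor members only, an alternative added after seeing the data. Per 100 endothelial-type cells there were 28.2, 66.7 and 27.0 members and 20.2, 18.5 and 18.1 keratin-poor members. For keratin-poor members the GelMA percentage went to 0.310 with 6 or more marker UMIs, the gel libraries to 0.319 and 0.323 with few UMIs of other cell types, and the untreated and GelMA libraries to 1.26 and 0.971 of cells low in keratin and Ttn. The percentage of genes called among members at a fold of 1.5 was 44.2, 46.3 and 27.5 (GelMA over untreated, AN-GelMA over GelMA, AN-GelMA over untreated) and among keratin-poor members 42.5, 38.8 and 34.6. With 6 or more marker UMIs those of AN-GelMA over GelMA and over untreated were 40.0 and 19.0 among members. That of AN-GelMA over untreated was 14.1 with few UMIs of other cell types, 15.6 with 2 or more Myh11 UMIs and 3.09 with 50 or more UMIs per gene. Among keratin-poor members 50 or more UMIs gave 11.1 for GelMA over untreated and 3.08 for AN-GelMA over untreated, and no Myh11 UMI gave 36.2 for AN-GelMA over GelMA.

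Of 366 list medians over members under the alternatives 62 changed sign. Those whose reported median was at least 1 on the log2 scale were interferon genes in GelMA over untreated when thinned (0.83), and in AN-GelMA over GelMA pericyte genes (−0.33 keratin-poor only, −0.031 with Myh11), contractile genes (−0.16 keratin-poor only), vessel tone genes (−0.36 keratin-poor only, −0.21 without and −0.14 with Myh11) and cell cycle genes (−0.20 keratin-poor only, −0.74 with Myh11). Of 291 over keratin-poor members 46 changed sign, 2 of them with a reported median of 0.5 or more: the Notch list in AN-GelMA over GelMA (−0.80) was 0.053 with few UMIs of other cell types and 0.052 with Myh11. In AN-GelMA over untreated the matrix median (−0.13) ran from −0.38 to 0.18 and the immediate early one (0.02) from −0.53 to 0.12. The matrix median of GelMA over untreated ran from −1.55 (no Myh11 UMI) to −0.91 (2 or more) and the immediate early one from 0.80 (cells with Notch3 alone kept) to 3.61 (thinned); in AN-GelMA over GelMA they ran from 0.89 to 1.55 and from −2.31 to −0.76. Of the named genes, Lor in AN-GelMA over GelMA was −0.70 with 6 or more marker UMIs, Cat in AN-GelMA over untreated 0.064 with 3 or more, Ccn1 in keratin-poor members 2.86 without Myh11 and Rgs16 −0.73 with Myh11. Depth limits single genes: with 1 UMI at 14.5 to 21.0 CPM, a gene under about 20 UMIs was not measured. The causes were not tested.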
